A study of Mus musculus with 12 samples.

Results

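The genes described here are 10 members of the cell's defence against ferroptosis, the iron-dependent form of cell death in which peroxidized membrane lipids accumulate. They were chosen by name, for their place in lipid peroxide, glutathione, coenzyme Q and thioredoxin metabolism, with earlier results of these data known, and are Gpx4, Aifm2, Dhodh, Gch1, Gclc, Gclm, Gsr, Txnrd1, Nqo1 and Hmox1. All 10 were found among the 54232 gene identifiers of the count table, and all 10 were among the 17509 that entered the test because 6 or more livers held over 2 reads each.

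Liver mRNA was sequenced from 6 wildtype (WT) and 6 Marchf6 LKO mice, 1 library per mouse. MARCHF6 is an E3 ubiquitin ligase of the endoplasmic reticulum. All animals were male C57Bl/6J littermates, 10 weeks old, fed chow and fasted for 4 h, and all carried floxed Marchf6 alleles (Marchf6 fl/fl). WT mice lacked the Cre transgene (AlbuminCre-) and LKO mice carried it (AlbuminCre+). The albumin promoter drives Cre in hepatocytes, so the deletion was aimed at these cells. Whether the other cells of an LKO liver kept an intact gene was not measured, and whole liver was sequenced. In such bulk tissue, fewer cells of a type and less RNA per cell cannot be told apart. The libraries held 14860414 to 22111926 counted reads. In the labels the WT numbers precede the LKO numbers, so a run order that followed them and the genotype cannot be told apart.

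Levels are given as normalized CPM, the reads of a gene for each 1000000 counted reads after scaling between libraries by TMM. Fold changes are LKO against WT on the log2 scale from edgeR's quasi-likelihood test. The p-values were adjusted by Benjamini-Hochberg over all genes tested, and genes were called at an adjusted p under 0.05. Marchf6 itself, counted over all of its exons, ranged from 226 to 247 CPM in WT livers and from 204 to 249 CPM in LKO livers (log2 fold change -0.09, SE 0.060). The table holds no count of the floxed exon alone and the groups overlapped, so this count does not check the genotype and the labels were used as given.

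GPX4 uses glutathione to reduce lipid hydroperoxides within membranes. Glutathione is made from glutamate, cysteine and glycine, with glutamate-cysteine ligase (a catalytic subunit, GCLC, and a modifier subunit, GCLM) as the rate-limiting step, and glutathione reductase (GSR) restores it after use. Beside this route, AIFM2 (also called FSP1) and DHODH reduce coenzyme Q to a radical-trapping form, GCH1 starts the synthesis of tetrahydrobiopterin, and thioredoxin reductase 1 (TXNRD1) supplies electrons to thioredoxin. Several of these genes, with the quinone reductase NQO1 and the haem-degrading enzyme HMOX1, are known targets of the transcription factor NRF2 (Nfe2l2).

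Both GPX4 and TXNRD1 are selenoproteins, in which a TGA codon is read as selenocysteine at the active site in place of a stop. They are the 2 members among 24 genes with such an annotated codon in GENCODE M21, which ties them to the selenoprotein lists described further on. The codon, in capitals, is shown with its neighbouring bases of the transcript (GRCm38, plus strand). In Gpx4 it is codon 129 of an annotated transcript and lies in exon 3 of 7 (chr10:80054725-80054751). In Txnrd1 it is codon 498, in exon 14 of 14, and 1 coding codon follows it before the stop codon (chr10:82896025-82896051).
Gpx4: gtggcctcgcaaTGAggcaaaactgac
Txnrd1: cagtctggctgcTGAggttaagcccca

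Across the 10 genes, edgeR called 0 at an adjusted p under 0.05, where 0.428% of all genes tested were called (0.274% as higher in LKO livers). Gpx4 came closest. The unadjusted p was under 0.05 for 2 of the 10, Gpx4 and Nqo1, both higher in LKO livers, and for 11.7% of all genes. DESeq2 called 1 of the 10, Gpx4, where it called 2% of all genes, and limma voom called 0, where it called 0.485% of all genes. The log2 fold change was positive for 7 genes and negative for 3, with a median of 0.12, while the median over all genes tested was 0.00015. None of the 10 had groups that did not overlap, which was the case for 1.3% of all genes.

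**Figure D1:**
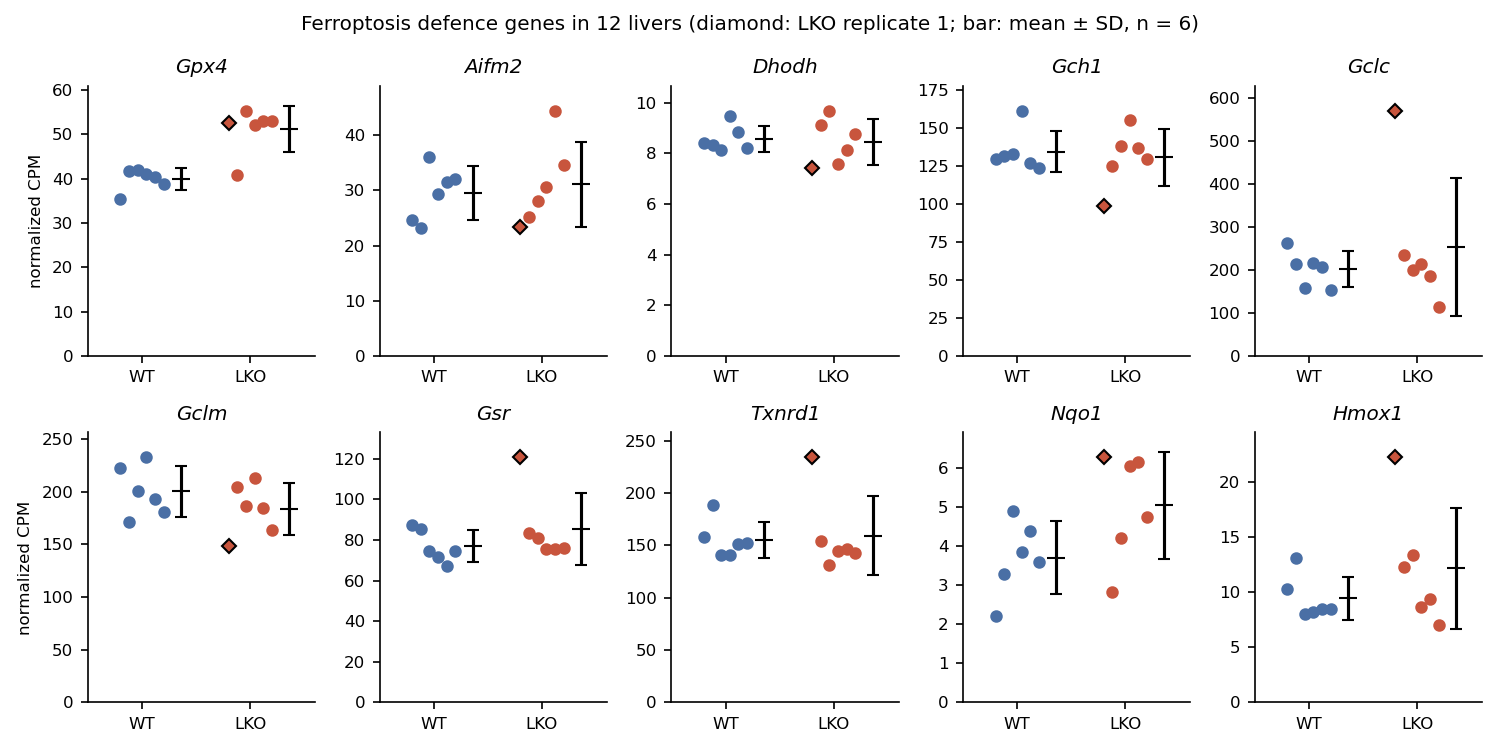
Normalized CPM (vertical axes, each from 0) of the 10 ferroptosis defence genes in 6 WT (blue) and 6 LKO (red) livers, 1 point per liver, with the mean ± SD (n = 6) beside each group and LKO replicate 1 as a diamond. 5 of the 6 LKO livers lie above all WT livers for Gpx4, and LKO replicate 1 is the highest liver for Gclc, Gsr, Txnrd1, Nqo1 and Hmox1.

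Gpx4 (ENSMUSG00000075706, chr10:80047166-80056439, plus strand, GRCm38) ranged from 35.4 to 41.9 CPM in WT livers, with a median of 40.8. In LKO livers it ranged from 40.8 to 55.4 CPM, with a median of 52.9. 5 LKO livers stood above the highest WT liver, at 52.0 to 55.4 CPM, and LKO replicate 2, at 40.8 CPM, lay among the WT livers. The means were 39.9 ± 2.49 CPM in WT and 51.2 ± 5.21 CPM in LKO livers (SD, n = 6), a log2 fold change of 0.36 (SE 0.075, 95% interval 0.20 to 0.52). This is a 1.28-fold difference with an interval of 1.15 to 1.43. Its unadjusted edgeR p was 0.000261, which ranked it at place 81 of the 17509 genes, and the adjusted p was 0.0564, just outside the threshold. A processed pseudogene, Gpx4-ps2, was counted apart at 9.49 CPM in WT and 10.8 CPM in LKO livers (log2 fold change 0.20, adjusted p 0.607), and reads that fit both copies could be split or dropped by the counting, so the level of Gpx4 is uncertain to that extent.

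Whether Gpx4 passed depended on the tool, the scaling, the filter and 1 liver. It passed in 5 of 9 alternative fits, with adjusted p-values of 0.0022 (DESeq2), 0.038 (upper-quartile scaling), 0.046 (both stricter filters on low counts) and 0.048 (no filter). Over all genes those fits called 2%, 0.474%, 0.503% (at least 10 reads in every liver), 0.55% (edgeR's filterByExpr) and 0.389%. Among the 4 fits in which Gpx4 did not pass were those with DESeq2's type of size factors in edgeR (RLE, 0.060), with limma voom (0.058) and with scaling that left out the 20 most abundant genes (0.057). The first and last of these called 0.445% and 0.44% of all genes. The direction was the same in all of these fits, and the log2 fold change moved only between 0.35 and 0.38. Leaving out each liver in turn gave 0.33 to 0.42, with an adjusted p under 0.05 in 1 of 12 fits, the one without LKO replicate 2 (log2 fold change 0.42, adjusted p 0.0057), in which 0.369% of all genes were called. Without LKO replicate 3 the adjusted p was highest, at 0.128.

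**Figure D2:**
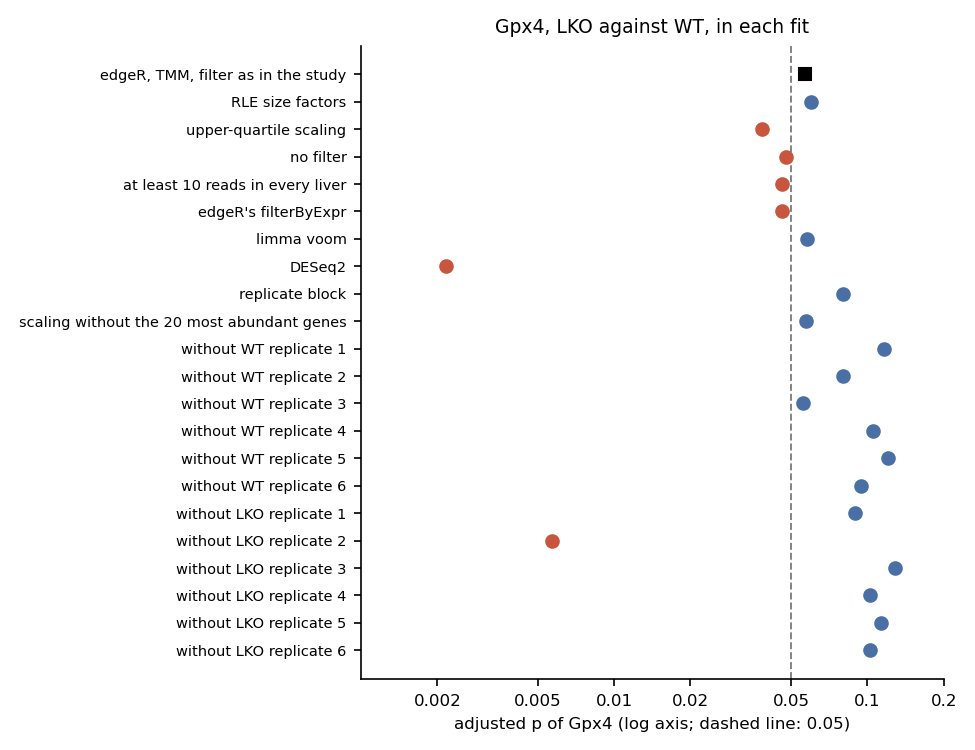
Adjusted p of Gpx4 (horizontal log axis, dashed line at 0.05) for LKO against WT livers in the edgeR test as reported (black square) and in each alternative fit, red where it is under 0.05 and blue where it is not. 5 of the 9 alternatives and 1 of the 12 fits without 1 liver lie left of the line.

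The coenzyme Q and tetrahydrobiopterin arms were close to even between genotypes. Aifm2 (ENSMUSG00000020085), the plasma membrane coenzyme Q reductase, ranged from 23.1 to 36.1 CPM (median 30.4) in WT and from 23.3 to 44.5 CPM (median 29.4) in LKO livers. The groups overlapped almost completely, apart from LKO replicate 5 at 44.5 CPM, and the log2 fold change was 0.08 (95% interval -0.24 to 0.40, adjusted p 0.892). Of the exon bases of Aifm2, 5.65% are shared with H2afy2 on the opposite strand, so reads there could belong to either gene if the counting did not use strand.

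Dhodh (ENSMUSG00000031730), a mitochondrial enzyme of pyrimidine synthesis that passes electrons to coenzyme Q, lay between 8.12 and 9.49 CPM (median 8.39) in WT and between 7.44 and 9.70 CPM (median 8.44) in LKO livers. It had the tightest spread of the 10 genes among WT livers, 1.17-fold from lowest to highest, and a log2 fold change of -0.02 (95% interval -0.21 to 0.16, adjusted p 0.952). Gch1 (ENSMUSG00000037580), the first enzyme of tetrahydrobiopterin synthesis, ranged from 124 to 162 CPM (median 131) in WT and from 98.7 to 156 CPM (median 133) in LKO livers. Its lowest liver was LKO replicate 1 and its highest WT replicate 4, and the log2 fold change was -0.04 (95% interval -0.25 to 0.17, adjusted p 0.912).

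The intervals of Aifm2, Dhodh and Gch1 all included 0. As a ratio of LKO to WT they ran from 0.846 to 1.32 for Aifm2, from 0.864 to 1.12 for Dhodh and from 0.840 to 1.12 for Gch1.

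Glutathione synthesis and recycling varied more between livers than between genotypes. Gclc (ENSMUSG00000032350), the catalytic subunit of glutamate-cysteine ligase, ranged from 152 to 263 CPM (median 211) in WT and from 114 to 570 CPM (median 206) in LKO livers. The value of 570 CPM was that of LKO replicate 1, and the other 5 LKO livers, at 114 to 233 CPM, overlapped the WT livers. The log2 fold change was 0.32 (SE 0.29, 95% interval -0.30 to 0.95, adjusted p 0.719), and without LKO replicate 1 it was -0.09 (adjusted p 0.880).

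Gclm (ENSMUSG00000028124), the modifier subunit, ranged from 171 to 233 CPM (median 197) in WT and from 149 to 213 CPM (median 185) in LKO livers. Here LKO replicate 1 was the lowest of the 12 livers, and the log2 fold change was -0.13 (SE 0.099, 95% interval -0.34 to 0.08, adjusted p 0.667). Of its exon bases, 4.71% overlap Gm17494 on the opposite strand and 3.88% a processed pseudogene, Gm6061. Gsr (ENSMUSG00000031584), which returns oxidized glutathione to its reduced form, ranged from 67.3 to 87.6 CPM (median 74.7) in WT and from 75.5 to 121 CPM (median 78.5) in LKO livers. LKO replicate 1 was again highest, at 121 CPM, with the other LKO livers between 75.5 and 83.6 CPM, inside the WT range. The log2 fold change of Gsr was 0.15 (SE 0.11, adjusted p 0.648), and 0.03 without that liver.

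Txnrd1 (ENSMUSG00000020250), the cytosolic thioredoxin reductase, ranged from 140 to 188 CPM (median 152) in WT and from 131 to 234 CPM (median 146) in LKO livers. LKO replicate 1 was the only LKO liver above the WT mean of 155 CPM. The log2 fold change of 0.04 (SE 0.13, 95% interval -0.23 to 0.31, adjusted p 0.948) changed to -0.11 without that liver (adjusted p 0.631).

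Nqo1 (ENSMUSG00000003849), a quinone reductase often read as an indicator of NRF2 activity, was a low-abundance mRNA here, with 32 to 143 reads per liver. It ranged from 2.21 to 4.89 CPM (median 3.72) in WT and from 2.81 to 6.28 CPM (median 5.39) in LKO livers. 3 LKO livers (replicates 1, 4 and 5) lay above every WT liver and replicate 2 lay low among them. Nqo1 had the largest fold change of the 10 genes (log2 0.45, SE 0.21, 95% interval 0.01 to 0.89), with an unadjusted edgeR p of 0.0470 and an adjusted p of 0.419. Its log2 fold change stayed between 0.34 and 0.57 when each liver was left out in turn, with an adjusted p of 0.215 or more.

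Hmox1 (ENSMUSG00000005413), which breaks down haem and so releases iron, ranged from 8.06 to 13.2 CPM (median 8.48) in WT and from 7.08 to 22.3 CPM (median 10.8) in LKO livers. LKO replicate 1 was highest and the groups otherwise overlapped. The log2 fold change was 0.37 (SE 0.24, 95% interval -0.14 to 0.88, adjusted p 0.577), and 0.10 without LKO replicate 1.

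HMOX1 is abundant in the iron-recycling macrophages of the liver, the Kupffer cells, so their markers are given beside it. All 13 Kupffer cell markers had a positive log2 fold change (0.28 to 0.52, median 0.37). edgeR called 0 of the 13, with 10 at an unadjusted p under 0.05. Their summed level ranged from 152 to 208 CPM in WT and from 187 to 319 CPM in LKO livers, and was 247 CPM in LKO replicate 1. The part of these cells in the level of Hmox1 was not tested.

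**Figure D3:**
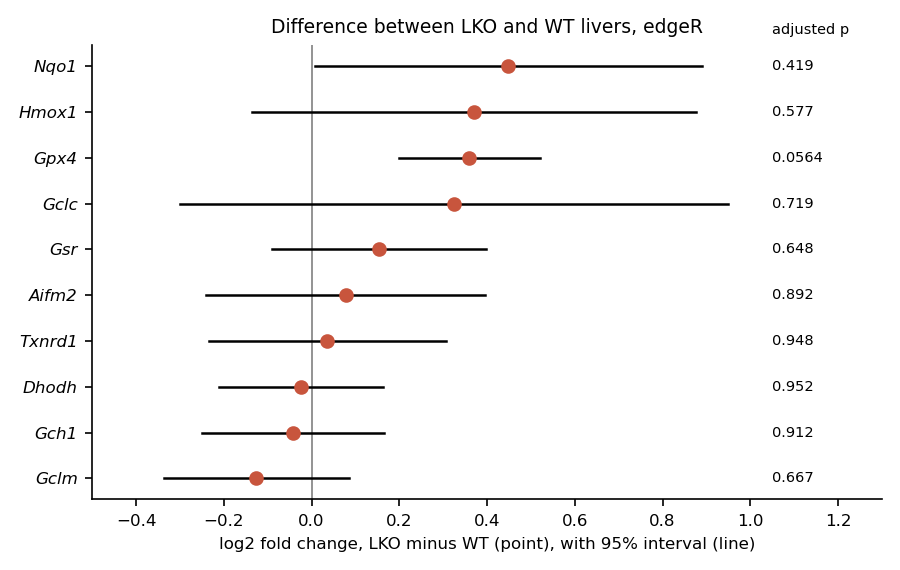
Log2 fold change of LKO against WT livers (point) with its 95% interval (line) for the 10 genes, from edgeR with 6 livers a group; adjusted p-values are printed at the right. The intervals of Gpx4 (0.20 to 0.52) and Nqo1 (0.01 to 0.89) lie above 0, the other 8 include it, and no adjusted p is under 0.05.

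Levels of different genes were compared as CPM per kilobase of exon, with the exons of all annotated transcripts of a gene merged. This length can exceed that of the mRNA present in liver. It was 6326 bases over 11 transcripts for Dhodh and 1553 bases from 1 transcript for Nqo1. The order of the genes is uncertain to that extent. In WT livers the order was Gclc (53.5 ± 11.0), Gclm (31.8 ± 3.82), Gsr (27.9 ± 2.88), Gpx4 (23.2 ± 1.44), Txnrd1 (21.9 ± 2.48), Gch1 (21.5 ± 2.19), Aifm2 (7.16 ± 1.18), Hmox1 (5.40 ± 1.14), Nqo1 (2.39 ± 0.597) and Dhodh (1.36 ± 0.0805; all SD, n = 6). The ranges over WT livers of Gclm and Gsr overlapped, as did those of Gpx4, Txnrd1 and Gch1, those of Aifm2 and Hmox1, and those of Nqo1 and Dhodh. Gsr (at least 24.4) also overlapped Txnrd1 (at most 26.6) and Gch1 (at most 25.9). Gclc stood above Gclm in this order without overlap (at least 40.4 against at most 37.0), and Gch1 stood above Aifm2 (at least 19.8 against at most 8.76). By this measure the lowest-ranked genes are the coenzyme Q reductases, the quinone reductase and the haem oxygenase. In LKO livers Gpx4 stood at 29.7 ± 3.02 CPM per kilobase.

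3 ratios within a liver, which do not depend on scaling between libraries, were compared by a two-sided exact permutation test over the 924 assignments of livers to groups. The ratio of Gclm to Gclc, the subunits of one enzyme, ranged from 0.796 to 1.27 in WT livers and from 0.261 to 1.43 in LKO livers. The lowest value, 0.261, was that of LKO replicate 1. The mean log2 ratio differed by -0.29 (exact permutation p = 0.591, adjusted over the 3 ratios 0.591). 5 of 6 LKO livers had a lower ratio than the WT mean (log2 ratio 0.0064). Of these, LKO replicates 4 and 5, at ratios of 1.0005 and 1.0009, were almost level with it.

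GCHFR is the feedback regulator that binds GCH1. The ratio of Gch1 to Gchfr ranged from 2.43 to 3.35 in WT and from 1.98 to 2.59 in LKO livers. The mean log2 ratio differed by -0.19 (exact permutation p = 0.0844, adjusted 0.159). All 6 LKO livers had a lower ratio than the average WT liver, but so did WT replicates 1, 2, 3 and 5 (2.43 to 2.58). That average was raised by WT replicate 4, at 3.35, without which the difference was -0.12. The ratio of Gsr to Txnrd1, the reductases of the glutathione and thioredoxin systems, ranged from 0.446 to 0.554 in WT and from 0.516 to 0.619 in LKO livers. All 6 LKO livers had a higher ratio than the average WT liver (difference 0.12, exact permutation p = 0.106, adjusted 0.159). In both ratios the groups overlapped and the difference did not pass after adjustment.

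LKO replicate 1 stood apart from the other livers in this set of genes. It was the highest of all 12 livers for 5 of the 10 genes (Gclc, Gsr, Txnrd1, Nqo1 and Hmox1) and the lowest for 3 (Gch1, Gclm and Dhodh). Over all genes tested it was highest for 13.7% and lowest for 13.2%. Relative to the median of the other 5 LKO livers, its level was 2.86-fold for Gclc, 2.38-fold for Hmox1, 1.62-fold for Txnrd1, 1.59-fold for Gsr and 1.32-fold for Nqo1, while Gpx4 was at 0.991-fold. Without it, the median log2 fold change of the 10 genes was 0.03 in place of 0.12.

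Of the 149 tested genes of the wider pathways, that liver was the highest of the 12 for 30 (20.1%) and the lowest for 22 (14.8%). By Dixon's test for 6 values it was apart from the other LKO livers as the highest for 7 of them and as the lowest for 8. A few of the genes that stood out are named here after their values were seen. Srxn1, which encodes sulfiredoxin and is an NRF2 target, was at 175 CPM in LKO replicate 1 and at 39.5 to 45.9 CPM in the other LKO livers. Gss, the second enzyme of glutathione synthesis, was 1.84-fold the median of the other LKO livers, which lay at 29.9 to 35.8 CPM. Acsl4, which loads polyunsaturated fatty acids into the lipids that peroxidize, was at 297 CPM against 93.8 to 126 CPM. Slc7a11, the cystine transporter that feeds glutathione synthesis, had 30 reads in LKO replicate 1 and at most 3 in any other liver, too few to enter the test. In the opposite direction, Nox4, an NADPH oxidase, was at 29.1 CPM against 41.9 to 51.9 CPM.

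Other measures of LKO replicate 1 moved with these genes to different degrees. Its summed bile duct markers stood at 129 CPM, against 34.1 to 53.1 CPM in the other LKO livers and 37.2 to 63.5 CPM in WT livers. Most of that sum was Spp1, at 114 CPM. Its stellate cell markers summed to 296 CPM, against 199 to 274 CPM in the other LKO livers. Its hepatocyte markers, at 92873 CPM, lay within the range of the other LKO livers (85809 to 97064 CPM). Its zonal hepatocyte markers were the lowest of the 12 livers. The pericentral sum was 7511 CPM, against 8649 to 10268 CPM in the other LKO livers and at least 7996 CPM in WT livers. The periportal sum was 12866 CPM, against 13351 to 16612 CPM in the other LKO livers and at least 13814 CPM in WT livers. Its depth of 20722320 reads was within the range of the series. The part of cell composition in its values was not tested.

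**Figure D4:**
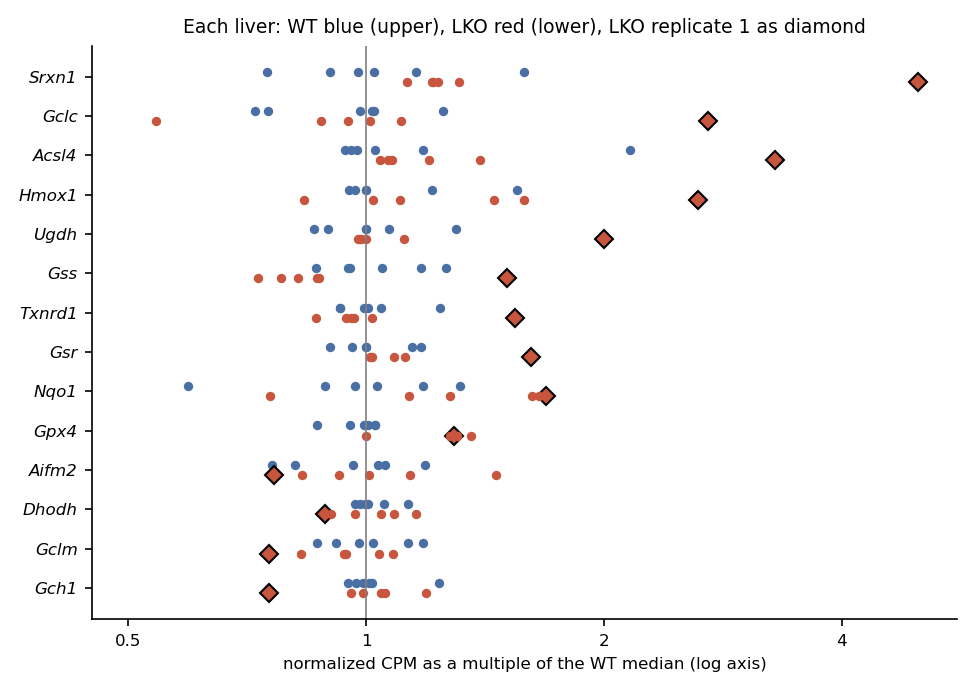
Normalized CPM of the 10 genes and of 4 further pathway genes in each liver, as a multiple of the WT median (horizontal log axis), with WT livers in blue above and LKO livers in red below each line and LKO replicate 1 as a diamond. That liver lies to the right of all others for Srxn1, Gclc, Acsl4, Hmox1, Ugdh, Gss, Txnrd1, Gsr and Nqo1, and to the left for Dhodh, Gclm and Gch1.

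Of 45 pairs among the 10 genes, the closest were drawn from those 5 genes (log2 CPM centred within each genotype, 12 livers). Gsr and Hmox1 had a Pearson r of 0.881 (permutation p = 0.001, adjusted over 45 pairs 0.045) and a Spearman rho of 0.762 (permutation p = 0.00583, adjusted 0.0682). Without LKO replicate 1 alone r was 0.713. Without WT replicate 1 and LKO replicate 1, the livers farthest out in Gsr, r was 0.795, and it was 0.789 within WT and 0.908 within LKO livers. Gsr and Txnrd1 had an r of 0.880 (permutation p = 0.0149, adjusted 0.096) and a rho of 0.622 (adjusted permutation p = 0.232). For this pair r was 0.678 without the same livers and 0.561 without LKO replicate 1 alone. Gclc and Hmox1 had an r of 0.852 (permutation p = 0.00456, adjusted 0.096) and a rho of 0.643 (adjusted permutation p = 0.198). Their r fell to 0.640 without LKO replicate 1 alone and to 0.430 without LKO replicates 1 and 6, and was 0.493 within WT livers. The strength of this relation thus rested in part on those 2 LKO livers. By Spearman rho the closest pairs were negative. They were Aifm2 and Hmox1 (rho -0.825, permutation p = 0.00308, adjusted 0.0682) and Aifm2 and Gclc (rho -0.818, permutation p = 0.00226, adjusted 0.0682).

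The genes whose centred levels over the 12 livers were most like those of Hmox1 were Lilr4b (r = 0.970), a receptor gene of myeloid cells, Stk40 (r = 0.954) and Vps37c (r = 0.951). Nqo1 was most like Hsd17b10 (r = 0.924), a mitochondrial dehydrogenase, 2810002D19Rik (r = 0.911) and Cenpm (r = 0.894). Per liver, 2810002D19Rik had 14 to 35 reads and Cenpm 6 to 39, so the likeness to these 2 rests on few reads. The genes most like Gpx4 were Gm42729, Traip and E030042O20Rik (r = 0.937, 0.933 and 0.908), each with at most 21 reads in any liver, so this likeness rests on very few reads.

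The wider pathways were described with 11 lists that held 158 genes beyond the 10, of which 149 entered the test. 2 of the 149 were called, both higher in LKO livers and both in the list of other NRF2 targets. That is 1.34% of them, against 0.428% of all genes. 25 of the 149 (16.8%) had an unadjusted p under 0.05, against 11.7% of all genes, and DESeq2 called 8, where it called 2% of all genes. The log2 fold change was positive for 93 and negative for 56, with a median of 0.04.

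**Figure D5:**
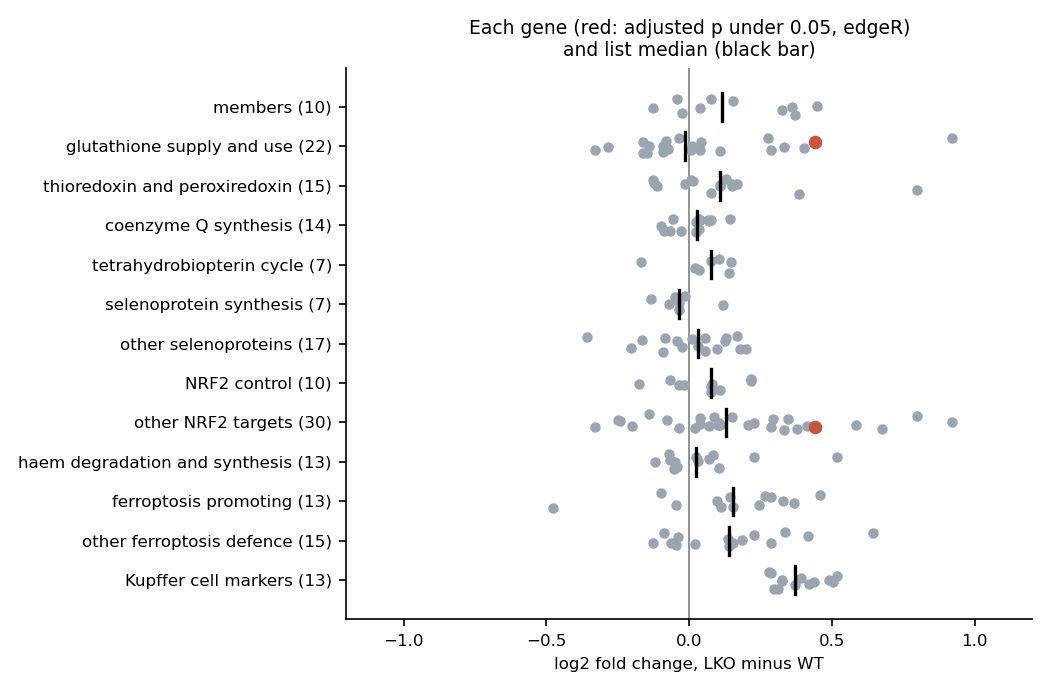
Log2 fold change of LKO against WT livers (horizontal axis) for each gene of the 10, of the pathway lists and of the Kupffer cell markers, 1 point per gene and list with the number tested in brackets; red points have an edgeR adjusted p under 0.05 and black bars are list medians. 1 gene beyond the axis is not drawn, and the red point is Gstm1, at 0.44, in 2 lists.

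The called gene Gstm1, a glutathione S-transferase, rose in LKO livers. It ranged from 668 to 813 CPM in WT livers and from 911 to 1070.4 CPM in LKO livers, without overlap. The means were 718 ± 53.8 and 974 ± 54.5 CPM (SD, n = 6), a log2 fold change of 0.44 (SE 0.066, adjusted p 0.00725). Gstm1 has close paralogs, and reads shared between copies could be split or dropped by the counting. Of the 22 tested genes of glutathione supply and use, 1 was called and 5 had an unadjusted p under 0.05 (11 positive, 11 negative, median log2 fold change -0.02). Gss stood at -0.16 (adjusted p 0.744) with LKO replicate 1 and at -0.35 without it.

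Of 15 thioredoxin and peroxiredoxin genes, edgeR called 0, with 3 at an unadjusted p under 0.05 and a median log2 fold change of 0.11. Txn1, thioredoxin itself, exceeded the WT average in each of the 6 LKO livers, by a log2 fold change of 0.15 (SE 0.056, adjusted p 0.307). Srxn1 had a log2 fold change of 0.80 (adjusted p 0.393), which was 0.20 without LKO replicate 1.

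For coenzyme Q synthesis, 0 of 14 genes were called by edgeR and 0 had an unadjusted p under 0.05 (median log2 fold change 0.03). The smallest p-values were those of Coq10a (0.14, adjusted p 0.477), a coenzyme Q-binding protein, and Coq5 (-0.09, adjusted p 0.627), a methyltransferase of the pathway. In the tetrahydrobiopterin cycle, 0 of 7 genes were called and 0 had an unadjusted p under 0.05 (median 0.08). Gchfr stood at 0.14 (adjusted p 0.459) and Pts, the second enzyme of the synthesis, at 0.14 (adjusted p 0.582).

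Of 7 genes for selenoprotein synthesis, edgeR called 0 and 0 had an unadjusted p under 0.05 (median -0.04). Sephs2, which makes the selenium donor, had a log2 fold change of -0.13 (adjusted p 0.774) and Trit1, a tRNA-modifying enzyme, one of 0.12 (adjusted p 0.657). Of 17 further selenoproteins edgeR called 0, and 2 had an unadjusted p under 0.05, both lower in LKO livers. Selenop, the selenium carrier that the liver secretes, ranged from 4229 to 4721 CPM in WT and from 3454 to 4136 CPM in LKO livers, without overlap. Its log2 fold change was -0.20 (SE 0.067, adjusted p 0.234), and it passed in 1 of 9 alternative fits, DESeq2 (adjusted p 0.019). Selenot, of the endoplasmic reticulum, stood at -0.17 (adjusted p 0.307). Gpx1, the abundant cytosolic glutathione peroxidase, stood at -0.09 (adjusted p 0.682), so that the sign differed from that of Gpx4.

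NRF2 and its regulators were close to even. Nfe2l2, which encodes NRF2, ranged from 65.4 to 86.5 CPM in WT and from 70.3 to 81.5 CPM in LKO livers (log2 fold change -0.02, SE 0.074, adjusted p 0.953). Keap1, its inhibitor, stood at 0.07 (adjusted p 0.762), Bach1, a repressor at the same sites, at 0.08 (adjusted p 0.866), Sqstm1, an adaptor that binds KEAP1, at 0.21 (adjusted p 0.551) and Rbx1, a subunit of the KEAP1 ligase, at 0.08 (adjusted p 0.673). Without LKO replicate 1, Keap1 stood at 0.01 and Sqstm1 at 0.08. edgeR called 0 of the 10 genes of this list, with 0 at an unadjusted p under 0.05. Of 30 other NRF2 targets, 2 were called and 13 had an unadjusted p under 0.05, with 12 up and 1 down in LKO, against 6.33% and 5.36% of all genes. The median log2 fold change was 0.13, with 23 positive and 7 negative.

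NRF2 binds the antioxidant response element, whose core TGACNNNGC was searched on both strands of RefSeq promoters (GRCm38.p6, 250 bases before to 50 after each start). 6 of the 10 genes had a promoter in the set, with 11 start sites in all. A match was found in 2 of those 11 promoters, 1 of Gclm and 1 of Txnrd1, while 12.4% of 32851 promoters hold one. Both matches are shown, since they belong to members whose levels went in opposite directions in LKO replicate 1, with the core in capitals. Each is written on the plus strand, the strand of the gene, and the core lies on the other strand, so it appears as its reverse complement. The Gclm match lies 134 bases before the start (chr3:122245413-122245441) and the Txnrd1 match 92 bases before the start of 1 of its 3 promoters (chr10:82859104-82859132).
Gclm: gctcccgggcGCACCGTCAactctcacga
Txnrd1: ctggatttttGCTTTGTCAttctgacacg
Such a match of letters does not say that the factor binds there.

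Of 13 genes of haem degradation and synthesis, edgeR called 0 and 1 had an unadjusted p under 0.05 (median log2 fold change 0.02). That gene was Blvrb, a biliverdin reductase downstream of HMOX1, at 51.6 ± 3.09 CPM in WT and 60.3 ± 4.15 CPM in LKO livers (SD, n = 6, log2 fold change 0.23, adjusted p 0.144), with all 6 LKO livers over the WT average, and it passed in DESeq2 (adjusted p 0.039). Uros, of haem synthesis, stood at -0.12 (adjusted p 0.486).

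Among 13 tested genes that promote ferroptosis, edgeR called 0, with 4 at an unadjusted p under 0.05 (median log2 fold change 0.15). Of the 4, 3 were higher in LKO livers and 1, Nox4, was lower. Nox4 ranged from 48.0 to 74.7 CPM in WT and from 29.1 to 51.9 CPM in LKO livers (log2 fold change -0.48, SE 0.13, adjusted p 0.155), and no LKO liver reached the WT average. It passed in DESeq2 (adjusted p 0.044), and its log2 fold change was -0.38 without LKO replicate 1, its lowest liver. Cybb, the phagocyte NADPH oxidase subunit, stood at 0.46 (adjusted p 0.164), beside the Kupffer cell markers given above. Acsl4 had a log2 fold change of 0.33 (adjusted p 0.716), which was -0.06 without LKO replicate 1. In a list of 15 genes grouped as other ferroptosis defence, edgeR called 0, with 3 at an unadjusted p under 0.05 (median 0.14). The list was grouped by name and not each gene in it protects, so its count and median do not measure defence. The smallest p-values were those of Scd1, the stearoyl-CoA desaturase, at 0.64 (adjusted p 0.135) and Fads1, a fatty acid desaturase, at 0.34 (adjusted p 0.152). For both, each of the 6 LKO livers exceeded the WT average. Both passed in DESeq2 (adjusted p 0.020 and 0.040), and Scd1 also in edgeR without WT replicate 3 (log2 fold change 0.85, adjusted p 0.0026). Fads1 was highest in LKO replicate 1, and its log2 fold change was 0.26 without that liver.

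Lists of cell type markers were read beside these results. Hepatocyte markers had a negative log2 fold change in 7 of 8 genes (median -0.14, 3 at an unadjusted p under 0.05), and summed to 95770 to 116680 CPM in WT and 85809 to 97064 CPM in LKO livers. All 8 stellate cell markers were positive (median 0.20), as were 7 of 8 endothelial markers (median 0.07). Pericentral and periportal hepatocyte markers had medians of 0.00 and -0.14, bile duct markers 0.25 and red cell markers 0.19. edgeR called 0 genes of these lists, with 1 stellate, 1 endothelial, 2 pericentral, 1 periportal, 1 bile duct and 2 red cell markers at an unadjusted p under 0.05. Of 8 B cell markers, 7 were positive (median 0.75), 5 had an unadjusted p under 0.05 as higher and 1 as lower in LKO livers, and the last, the immunoglobulin gene Ighm, was called.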

How the data were processed

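Liver mRNA of 6 WT and 6 Marchf6 LKO mice was analysed from the table of read counts per gene that the authors deposited. Per the labels and the study's methods, libraries were made with the KAPA mRNA HyperPrep kit, sequenced on an Illumina HiSeq4000, trimmed with Trimmomatic 0.36, aligned with HISAT2 2.1.0 to GRCm38.p6 and counted with HTSeq 0.6.1; the submitters' processing notes also name FastQC 0.11.15. The strand setting of the counting is not given in the sources used here. The kit's reads were counted without molecular identifiers, so counting error is a lower limit of the error.

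The deposited raw counts were tested with edgeR 4.0.16 in R 4.3.3 (TMM scaling, quasi-likelihood test, genotype as the only term) for 17509 genes, those for which 6 or more livers held over 2 reads each (the study's own filter), and p-values were adjusted by Benjamini-Hochberg over these genes. The study's own test, limma voom (limma 3.58.1), and DESeq2 1.42.0 were alternatives, with other scalings, other filters and fits without 1 of the livers. For the figures and ratios, log2 CPM used a prior count of 0.5. Correlations used 100000 permutations and SciPy 1.17.1. Identifiers were named from GENCODE M21 (54165 of 54232 matched). On simulated counts with 17554 genes tested, edgeR recovered 81.6% of 98 genes changed by 1 on the log2 scale and 98% of 102 changed by 2, with 5.26% false calls.

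Groups came from the labels. The library numbers are not stated to pair the mice and were not used as pairs. No 2 libraries were identical. The 10 genes and the lists were chosen with earlier results of these data known. Named beside them were the called genes and the 2 genes with the smallest unadjusted p of each of 11 pathway lists. A further 8 genes were fixed by name (Nfe2l2, Keap1, Bach1, Slc7a11, Gss, Gchfr, Acsl4 and Gpx1). Also named were the 3 genes most like each of the 3 members with the smallest p. Of the pairs of members, the 3 closest by Pearson r were named, with the closest by Spearman rho. 9 lists of cell type markers (Kupffer, stellate, endothelial, B cell, bile duct, red cell, hepatocyte, pericentral and periportal) were read beside the results. Some genes of the lists are not reported here.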

Additional observations from a re-analysis of the deposited data

Results flagged for a closer look

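Among 80 groups of 6 livers (each of the genes named and each ratio, in WT and in LKO livers), 17 held a liver whose gap to its nearest neighbour took a larger share of the range of its group than Dixon's test allows for 6 values at the 95% level. Chance flags about 1 in 20 groups, or 4 of the 80. 9 of the 17 were LKO replicate 1.

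For the 10 defence genes, the share of the range was 0.795 for Gpx4 in LKO replicate 2, the lowest LKO liver at 40.8 CPM. It was 0.784 for Gsr and 0.718 for Txnrd1 in LKO replicate 1, the highest liver for both, and 0.726 for Gch1 in WT replicate 4, the highest WT liver. The ratio of Gclm to Gclc was lowest in LKO replicate 1 (0.713) and the ratio of Gsr to Txnrd1 highest in LKO replicate 3 (0.735).

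Among the other pathway genes, LKO replicate 1 was apart as the highest LKO liver for Srxn1 (0.899), Gss (0.753) and Acsl4 (0.746). It was apart as the lowest for Sephs2 (0.66), Pts (0.647) and Nox4 (0.632). WT replicate 2 was the highest WT liver for Acsl4 (0.728) and Sqstm1 (0.629) and the lowest for Bach1 (0.64) and Coq10a (0.626), and WT replicate 3 was the lowest for Gpx1 (0.772). Over all 17509 genes tested, LKO replicate 1 was apart as the highest liver of its group for 1.67% and as the lowest for 1.99%, where the other livers were apart as the highest for 0.188% to 0.857%.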

How the results depend on the processing

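Over all genes, edgeR called 75, against 114 with no filter on low counts, 350 with DESeq2, 97 with the replicate block and 38 (without WT replicate 5) to 132 (without WT replicate 3) when 1 liver was left out. On simulated counts DESeq2 made 11.5% false calls and edgeR 5.26%. Those counts were drawn with the dispersions that edgeR had estimated and held no liver that stood apart. They are therefore not an even comparison of the tools. Of the 10 defence genes, 0 were called as reported and 1, Gpx4, with upper-quartile scaling, no filter, at least 10 reads in every liver, edgeR's filterByExpr and DESeq2. Leaving out 1 liver gave 0 to 1. The pathway lists had 2 calls as reported, 8 with DESeq2 and 2 to 6 when 1 liver was left out, the highest without WT replicate 3. The median log2 fold change of the 10 genes ranged from 0.10 to 0.13 over the other alternatives and from 0.03 (without LKO replicate 1) to 0.15 when 1 liver was left out.

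Of the genes whose log2 fold change changed sign when 1 liver was left out, none passed the test in any of those fits: Aifm2 (-0.054 to 0.15), Dhodh (-0.066 to 0.012), Gch1 (-0.098 to 0.028), Gclc (-0.093 to 0.48), Txnrd1 (-0.11 to 0.097), Acsl4 (-0.059 to 0.57), Bach1 (-0.0071 to 0.15) and Nfe2l2 (-0.062 to 0.016). Gclm, Gsr, Nqo1, Hmox1 and Gpx4 kept their sign in every fit. The difference in the log2 ratio of Gclm to Gclc ranged from -0.45 to 0.039, the last without LKO replicate 1. That of Gch1 to Gchfr ranged from -0.22 (exact permutation p = 0.0498 without LKO replicate 4) to -0.12, and that of Gsr to Txnrd1 from 0.082 to 0.15 (exact permutation p = 0.026 without WT replicate 1). The cause was not tested.

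The library numbers are shared by different mice. Deviations of same-numbered livers correlated by -0.0649 to 0.135, over 0.1 in 4 of 6 numbers. 5 of 12 livers correlated best with the liver of their own number. These values come from the data and not from the design, and whether they exceed what unpaired livers give was not tested. With the number as a replicate block, Gpx4 had a log2 fold change of 0.36 (adjusted p 0.080), 0 of the 10 genes and 2 pathway genes were called, the median of the 10 was 0.12, and the ratios differed by -0.29, -0.19 and 0.12.

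The precision with 6 livers a group differed between genes, with 95% intervals of the log2 fold change from 0.20 to 0.52 for Gpx4 and from -0.30 to 0.95 for Gclc.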
